A study of Bos taurus with 6 samples.

Results

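Glutaredoxins, glutathione peroxidases, glutathione reductase and the enzymes of glutathione synthesis were described in bovine metaphase II oocytes, mature eggs arrested before fertilization, that had been matured in culture. The study compared 3 RNA-seq libraries labelled siMTFP1 (MTFP1 knockdown) with 3 libraries labelled NC (negative control). MTFP1 encodes an inner mitochondrial membrane protein linked to mitochondrial fission. All 6 libraries were labelled as oocytes of Bos taurus. The sources used here do not say how the knockdown was made, how many oocytes each library held or how old the donor cows were. The 10 genes are GLRX (NCBI gene ID 515416), GLRX2 (513762), GLRX3 (511528), GSR (506406), GPX1 (281209), GPX3 (281210), GPX4 (286809), GCLC (512468), GCLM (525659) and GSS (525059), out of 17325 genes in the files, and all 10 were found there. They were chosen by pathway, with their FPKM and their siMTFP1 minus NC differences in these same libraries already known. Their levels and differences are therefore given as a description, and the limma values beside them come from one fit over all tested genes.

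Glutathione is a small thiol made from glutamate, cysteine and glycine. Glutamate-cysteine ligase, a complex of a catalytic subunit (GCLC) and a modifier subunit (GCLM), joins glutamate and cysteine, and glutathione synthetase (GSS) then adds glycine. Glutathione peroxidases spend glutathione to reduce hydrogen peroxide and lipid hydroperoxides, glutaredoxins use it to remove glutathione from protein thiols or to handle iron-sulfur clusters, and glutathione reductase (GSR) returns oxidized glutathione to its reduced form with NADPH. Oocytes build up glutathione as they mature, partly with cysteine provided through the surrounding cumulus cells, and the fertilized egg uses it to unpack the sperm head.

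The targeted transcript was checked first. MTFP1 had 0.43, 0.58 and 1.15 FPKM in the libraries labelled siMTFP1 1, 2 and 3, against 0.53, 0.55 and 0.05 FPKM in those labelled NC 1, 2 and 3. FPKM divides a gene's fragments by its transcript length and by the library's mapped fragments. The groups overlapped, and the difference on the log2(FPKM + 1) scale was 0.32 in the higher direction (exact two-sided permutation test, p = 0.4, where 3 against 3 cannot go below 0.1). It was 0.14 without NC 3, 0.15 without siMTFP1 3, 0.09 with a pseudocount of 5 and 0.96 with a pseudocount of 0.1. The target transcript was not lower under the knockdown label, and groups and directions are named only as labelled.

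The 6 libraries held oocyte RNA throughout. All 13 oocyte markers looked for were above 0 in every library, and their summed level was 27870 to 28400 FPKM in the libraries labelled siMTFP1 and 29040 to 30280 FPKM in those labelled NC, without overlap. Of the 13, 9 had a higher mean and 4 a lower one in the libraries labelled siMTFP1, and of those 4 ZP2 and BTG4 differed by the most FPKM. ZP2 averaged 3135 ± 96.3 FPKM in siMTFP1-labelled and 4566 ± 179 FPKM in NC-labelled libraries (SD, n = 3 each). BTG4 overlapped, with 9636.10, 9164.87 and 10090.52 FPKM in the libraries labelled siMTFP1 and 9515.57, 10236.24 and 12078.88 FPKM in those labelled NC. The part of that difference in the results for the glutathione genes was not tested. Of 20 cumulus and granulosa markers, 16 were above 0 in every library, and FSHR, CYP19A1 and AMH stayed below 1 FPKM in all. The summed level of the 20 was 199 to 244 FPKM in the libraries labelled siMTFP1 and 169 to 203 FPKM in those labelled NC. It was highest in siMTFP1 2, at 244 FPKM. The largest entries were STAR, at 54.52 to 72.55 FPKM over the 6 libraries, and HAS2, at 33.79 to 49.85 FPKM. Of the 8 blood cell markers in the files, 5 (PTPRC, CD68, LAPTM5, TYROBP and ALAS2) stayed below 1 FPKM in every library. The sum of all 8 was 28.2 to 64.3 FPKM in the libraries labelled siMTFP1 and 50.5 to 77.0 FPKM in those labelled NC, and most of it was the globin HBA. FPKM summed to between 784366 and 892790 per library, and the sequencing depth is unknown, since FPKM does not hold it.

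The glutathione genes spanned a wide range of levels, with GLRX at the top. Averaged over the 6 libraries, GLRX stood at 230.2 FPKM, above 96.7% of all genes in the files, and GSR at 100.1 FPKM, above 93.4%. GCLC followed at 58.3 FPKM, GPX1 at 33.9, GPX4 at 31.2 and GLRX3 at 21.5. GCLM had 11.7 FPKM, GLRX2 5.03, GSS 2.73 and GPX3 0.793. GLRX lay above GSR, and GSR above GCLC, in 6 of 6 libraries with no overlap between the ranges of these neighbours. GPX1 and GPX4 could not be ordered over all libraries. GPX1 was the higher in 3 of 6, each labelled siMTFP1, and GPX4 was the higher in each library labelled NC. For GCLC over GPX1, GPX4 over GLRX3, GLRX2 over GSS and GSS over GPX3, the ranges over all libraries touched, although the first named was higher within each library. The 10 genes together took 0.0562% to 0.0857% of the FPKM sum in the libraries labelled siMTFP1 and 0.0432% to 0.0511% in those labelled NC, without overlap. GLRX alone made up 39.9% to 58.4% of the 10 genes' summed FPKM in the libraries labelled siMTFP1 and 34.9% to 36.8% in those labelled NC.

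**Figure D1:**
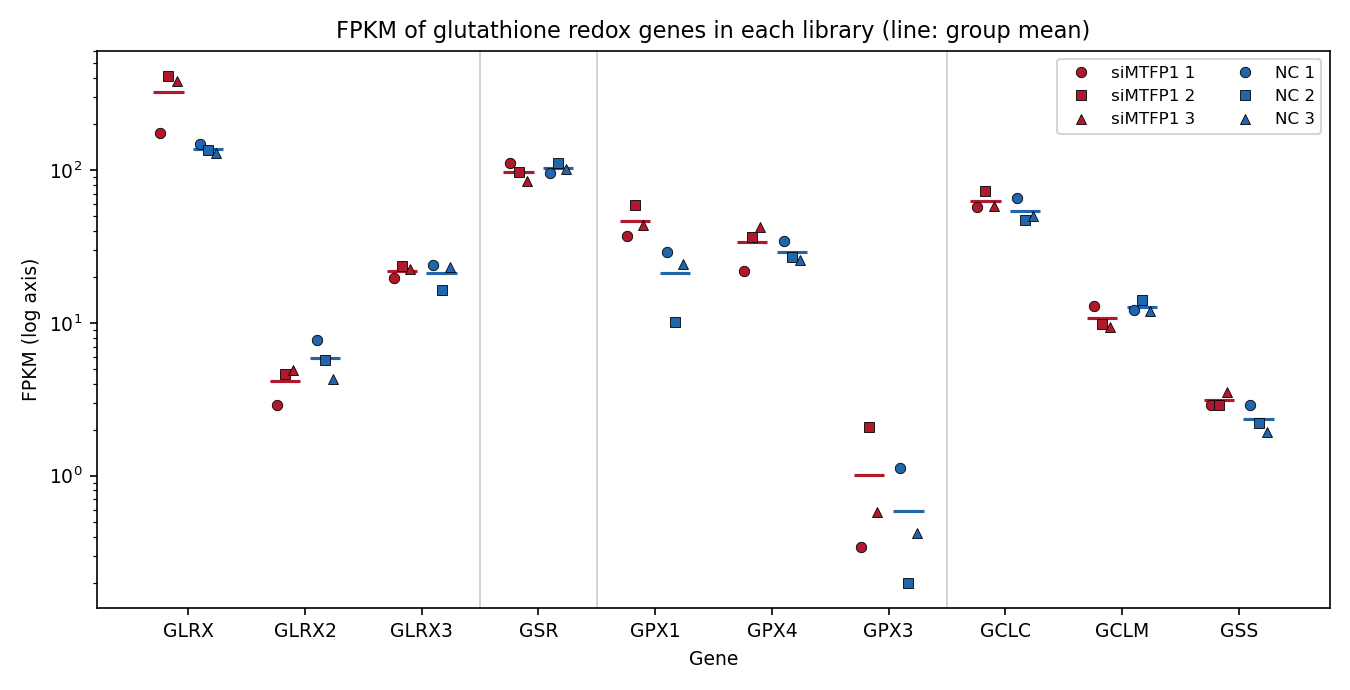
FPKM on a log axis for each of the 10 genes in the 3 libraries labelled siMTFP1 (red, left) and the 3 labelled NC (blue, right), with a line at each group's mean; marker shapes give the replicate number. GLRX and GPX1 are the genes in which no siMTFP1 point lies at or below an NC point, and GLRX in siMTFP1 1, at 175.92 FPKM, sits close to the NC points.

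Across the comparison, 0 of 9 tested genes of the group passed limma at an adjusted p of 0.05, against 0% of all 9730 genes tested. GPX3 had a mean below 1 FPKM and was not tested. At an unadjusted p under 0.05 the count was 2 of 9, both higher in the libraries labelled siMTFP1, where 6.53% of all tested genes lay under that limit. The same 2 genes, GLRX and GPX1, were those without overlap between the groups. Among all tested genes 5.97% had every siMTFP1 value above every NC value and 5.05% had every one below, and 0 of the 9 were of that lower kind. Because these genes were listed with the comparison known, nothing is read from their share against that background. The median log2 difference of the 9 was 0.17, beside 0.02 for all genes tested, with 6 of the 9 higher and 3 lower in mean.

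GLRX, the cytosolic glutaredoxin that strips glutathione from oxidized protein thiols, separated the groups without overlap. It had 175.92, 411.64 and 379.39 FPKM in the libraries labelled siMTFP1 1, 2 and 3, against 148.56, 135.54 and 130.00 FPKM in those labelled NC 1, 2 and 3. Libraries siMTFP1 2 and 3 were far above every NC library, while siMTFP1 1 was only a little above the highest of them. Mean GLRX was 322 ± 128 FPKM in the libraries labelled siMTFP1 and 138 ± 9.53 FPKM in those labelled NC (SD, n = 3 each), a ratio of 2.34. The difference on the log2(FPKM + 1) scale, on which all log2 differences here are given, was 1.13, with an SE of 0.29 and a limma adjusted p of 0.583. The spread was uneven: on the log2 scale the SD was 0.67 among the libraries labelled siMTFP1, above that of 97.4% of tested genes, and 0.10 among those labelled NC, above 17.1%. Without siMTFP1 1 the log2 difference was 1.51 (limma adjusted p = 0.0444), the one setting of 16 that called a gene of the group. Without siMTFP1 2 it was 0.90 and without siMTFP1 3 it was 0.96. Its direction was the same in all 16 settings.

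GLRX2 and GLRX3 overlapped between the groups. GLRX2, the mitochondrial form, had 2.90, 4.63 and 4.95 FPKM in the libraries labelled siMTFP1, against 7.73, 5.71 and 4.26 FPKM in those labelled NC. The overlap of GLRX2 came only through NC 3. GLRX2 averaged 4.16 ± 1.10 FPKM in the libraries labelled siMTFP1 and 5.90 ± 1.74 FPKM in those labelled NC (SD, n = 3 each), a log2 difference of -0.41 (95% interval -0.96 to 0.14, limma adjusted p = 0.839). It was -0.22 without siMTFP1 1 and -0.23 without NC 1. GLRX3, a glutaredoxin of the cytosol that handles iron-sulfur clusters, had 19.63, 23.41 and 22.55 FPKM in the libraries labelled siMTFP1 and 24.07, 16.28 and 23.12 FPKM in those labelled NC. Its values were interleaved, with a log2 difference of 0.06 (95% interval -0.35 to 0.47), which turned to -0.11 without NC 2. GLRX provided 88.7% to 93.6% of the summed FPKM of the 3 glutaredoxins in the libraries labelled siMTFP1 and 82.4% to 86.0% in those labelled NC. GLRX2 and GLRX3 together summed to 22.5 to 28.0 FPKM in the libraries labelled siMTFP1 and 22.0 to 31.8 FPKM in those labelled NC.

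GLRX5, the mitochondrial glutaredoxin of iron-sulfur cluster assembly, belongs to the family but not to the 10 genes. It had 34.95, 47.30 and 50.23 FPKM in the libraries labelled siMTFP1, against 30.00, 25.98 and 29.92 FPKM in those labelled NC. As with GLRX, every siMTFP1 value lay above every NC value and siMTFP1 1 was the lowest of its group. The log2 difference was 0.59 (SE 0.17, limma adjusted p = 0.638).

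GSR, the enzyme that regenerates reduced glutathione, was abundant, and its groups overlapped. It had 110.39, 97.33 and 84.86 FPKM in the libraries labelled siMTFP1, against 95.30, 110.96 and 101.49 FPKM in those labelled NC. Library siMTFP1 1 was close to the highest NC value and siMTFP1 3 was the lowest of all, and the log2 difference was -0.08 (SE 0.14, 95% interval -0.40 to 0.25, limma adjusted p = 0.957). It turned to 0.018 without siMTFP1 3. The ratio of GLRX to GSR, both per length, was 1.59, 4.23 and 4.47 in the libraries labelled siMTFP1 and 1.56, 1.22 and 1.28 in those labelled NC, so siMTFP1 1 and NC 1 were nearly alike in this ratio.

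**Figure D2:**
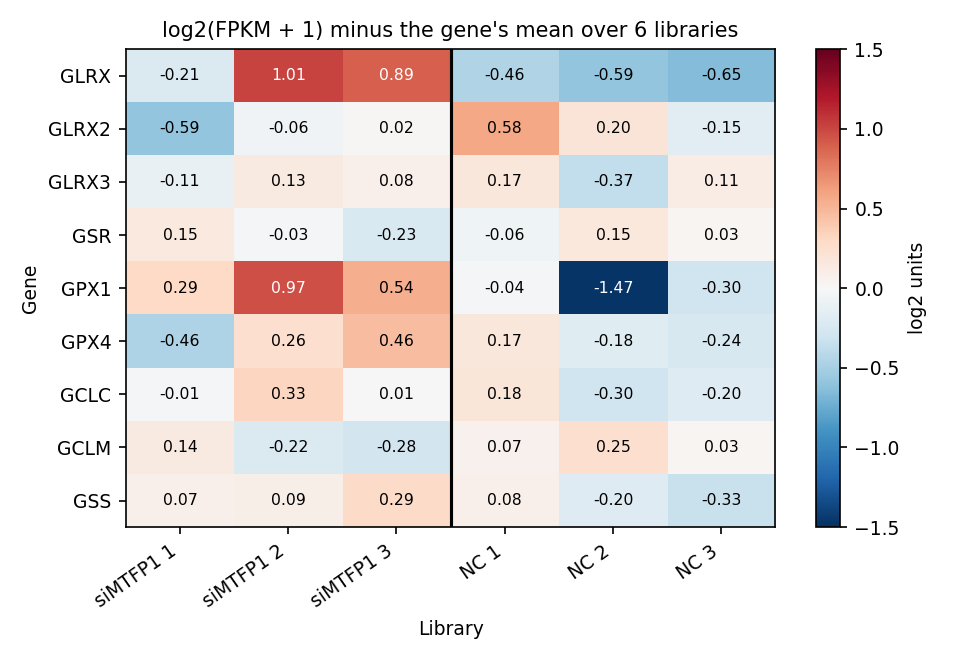
Each cell gives a gene's log2(FPKM + 1) in one library minus that gene's mean over the 6 libraries, for the 9 tested genes, with the libraries labelled siMTFP1 left of the black line and those labelled NC right of it. GLRX reaches 1.01 and 0.89 in siMTFP1 2 and 3 but -0.21 in siMTFP1 1, and the lowest cell is GPX1 in NC 2 at -1.47.

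GPX1, the selenium-dependent peroxidase that reduces hydrogen peroxide in cytosol and mitochondria, also showed no overlap between the groups. It had 36.79, 59.26 and 43.80 FPKM in the libraries labelled siMTFP1 1, 2 and 3, against 29.07, 10.13 and 24.09 FPKM in those labelled NC 1, 2 and 3. The highest value was that of siMTFP1 2 and the lowest that of NC 2, which stood well below its group. It averaged 46.6 ± 11.5 FPKM in the libraries labelled siMTFP1 and 21.1 ± 9.82 FPKM in those labelled NC (SD, n = 3 each). The ratio of the means was 2.21, and the log2 difference of 1.20 had an SE of 0.35 and a limma adjusted p of 0.644. Its log2 SD among the libraries labelled NC was 0.76, above that of 98.3% of tested genes. Without NC 2 the log2 difference was 0.77, and without siMTFP1 2 it was 1.02. Over the 16 settings its adjusted p ranged from 0.258 to 1.00 and its direction did not change.

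Library siMTFP1 2 was also the highest for GPX3 and for the summed cumulus and granulosa markers, so these values are set side by side. GPX3, the secreted peroxidase of extracellular fluids, had 0.34, 2.09 and 0.58 FPKM in the libraries labelled siMTFP1, against 1.13, 0.20 and 0.42 FPKM in those labelled NC. The groups overlapped, and limma without the filter on low values gave a log2 difference of 0.28 (SE 0.35, adjusted p = 0.906). Among the 6 libraries, siMTFP1 2 and NC 1 were the highest of their groups in GPX3, in GPX1 and in the marker sum. That sum was 209.5, 243.5 and 199.4 FPKM in siMTFP1 1, 2 and 3 and 202.8, 177.4 and 168.9 FPKM in NC 1, 2 and 3. GCLC was also highest in these libraries, at 72.56 FPKM in siMTFP1 2 and 65.37 FPKM in NC 1. Over all 9730 tested genes, the deviations of siMTFP1 2 and NC 1 from their group means correlated at 0.231. How many other genes had siMTFP1 2 and NC 1 highest in their groups was not counted, and the source of the shared order was not tested. The intermediate filament gene VIM, one of these markers, had 4.71, 13.80 and 6.56 FPKM in the libraries labelled siMTFP1 and 6.67, 0.40 and 1.25 FPKM in those labelled NC. SERPINE2 had 24.61, 43.06 and 17.99 FPKM in the libraries labelled siMTFP1 and 13.28, 13.81 and 16.43 FPKM in those labelled NC. It was the 1 marker on the list of 20 without overlap, beside 5.97% of all tested genes with every siMTFP1 value above every NC value. That share covers genes with a mean of at least 1 FPKM, which some of the 20, among them CYP19A1, FSHR and AMH, did not reach. The largest markers, STAR and HAS2, overlapped (log2 differences 0.046 and 0.235). TNFAIP6, also of this list, went the other way, with 1.06, 2.84 and 1.16 FPKM in the libraries labelled siMTFP1 and 5.31, 1.51 and 17.14 FPKM in those labelled NC. In mean, 13 of the 20 markers were higher and 7 lower in the libraries labelled siMTFP1. In bulk RNA of this kind, fewer cells of a type and less RNA per cell cannot be told apart, and the part of other cells in the GPX1 and GPX3 values was not tested.

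GPX4, the peroxidase that reduces phospholipid hydroperoxides and restrains ferroptosis, was at the same order of level as GPX1 but did not separate the groups. It had 21.83, 36.54 and 42.30 FPKM in the libraries labelled siMTFP1, against 34.34, 26.81 and 25.59 FPKM in those labelled NC. Library siMTFP1 1 was the lowest of all and siMTFP1 3 the highest. The log2 difference was 0.17 (SE 0.24, 95% interval -0.39 to 0.72, limma adjusted p = 0.944), 0.44 without siMTFP1 1 and -0.02 without siMTFP1 3. The ratio of GPX1 to GPX4 was 1.69, 1.62 and 1.04 in the libraries labelled siMTFP1 and 0.847, 0.378 and 0.941 in those labelled NC, without overlap. GPX1 was therefore the more abundant of the pair in each library labelled siMTFP1, and GPX4 in each labelled NC.

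The synthesis enzymes overlapped between the groups, with the catalytic subunit far above the others. GCLC had 57.11, 72.56 and 58.00 FPKM in the libraries labelled siMTFP1, against 65.37, 46.76 and 50.23 FPKM in those labelled NC. The groups overlapped through NC 1, and the log2 difference was 0.21 (SE 0.17, 95% interval -0.18 to 0.60, limma adjusted p = 0.892). It was 0.10 without siMTFP1 2, 0.12 without NC 2 and 0.35 without NC 1. GCLM, the modifier that raises the activity of the catalytic subunit, had 12.85, 9.82 and 9.40 FPKM in the libraries labelled siMTFP1 and 12.19, 14.01 and 11.88 FPKM in those labelled NC. Libraries siMTFP1 2 and 3 were the lowest, while siMTFP1 1 lay within the NC range, and the log2 difference was -0.24 (SE 0.17, 95% interval -0.62 to 0.14, limma adjusted p = 0.878), or -0.36 without siMTFP1 1 and -0.16 without siMTFP1 3. The ratio of GCLC to GCLM was 4.44, 7.39 and 6.17 in the libraries labelled siMTFP1 and 5.36, 3.34 and 4.23 in those labelled NC, with overlap.

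GSS was the scarcest of the synthesis transcripts. It had 2.88, 2.92 and 3.52 FPKM in the libraries labelled siMTFP1, against 2.91, 2.22 and 1.93 FPKM in those labelled NC. Only NC 1 reached into the siMTFP1 range, by a small margin, and the log2 difference was 0.30 (SE 0.17, 95% interval -0.10 to 0.70, limma adjusted p = 0.839). GCLC exceeded GSS 16.5- to 24.9-fold in the libraries labelled siMTFP1 and 21.1- to 26.0-fold in those labelled NC. The 3 synthesis genes summed to 76.4 ± 7.81 FPKM in the libraries labelled siMTFP1 and 69.2 ± 9.80 FPKM in those labelled NC (SD, n = 3 each). Without GLRX, the other 9 of the 10 genes summed to 264.7, 308.6 and 270.0 FPKM in the libraries labelled siMTFP1 and 272.1, 233.1 and 243.0 FPKM in those labelled NC, and the groups overlapped.

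**Figure D3:**
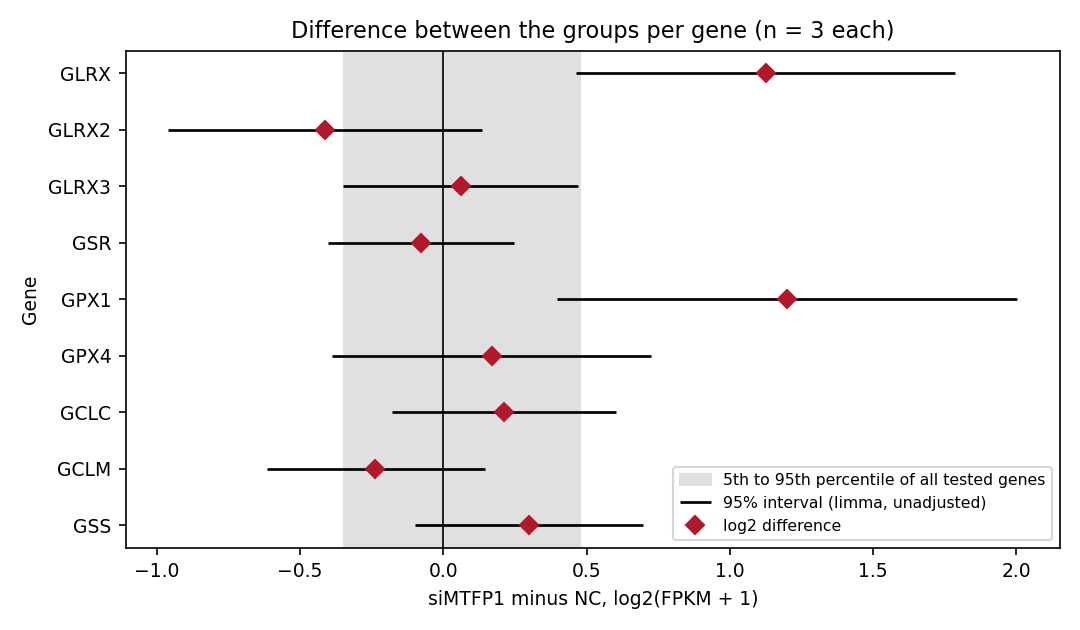
Difference between the libraries labelled siMTFP1 and those labelled NC, in log2(FPKM + 1), for the 9 tested genes (diamonds), with the 95% interval of the limma fit before any adjustment for multiple tests and, in grey, the 5th to 95th percentile of all 9730 tested genes, -0.35 to 0.48. GLRX at 1.13 and GPX1 at 1.20 lie right of the grey band, GLRX2 at -0.41 lies left of it, and the other 6 lie inside.

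The 10 genes did not vary as a unit over the libraries. As a measure of likeness, each tested gene's log2(FPKM + 1) values were centred on their mean over the 6 libraries, and the root mean square difference between such profiles was taken. The profiles were not scaled, so genes of little spread lie close together and genes of wide spread lie far apart. The distance therefore cannot tell a shared course from a small spread. The most alike pairs within the group were GSR with GCLM, at 0.10 log2 units, and GLRX3 with GCLC, at 0.16. GLRX was closest to GPX1, at 0.49, and the least alike pair was GLRX2 with GPX1, at 0.94. The mean of GLRX2 was lower, and that of GPX1 higher, in the libraries labelled siMTFP1 than in those labelled NC.

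Among all tested genes with a symbol, the profiles nearest to that of GLRX were ITM2C (0.22 log2 units), MRPS2 (0.23) and CISD3 (0.24), beside a median of 0.71 over 9241 genes. MRPS2 encodes a protein of the mitochondrial ribosome and CISD3 an iron-sulfur protein of mitochondria, and no common theme is read from the 3 genes. The groups overlapped in CISD3, with 2.27 FPKM in siMTFP1 1 against 2.79 FPKM in NC 1 and 2.69 FPKM in NC 3. MRPS2 had 4.55, 7.61 and 6.90 FPKM in the libraries labelled siMTFP1 and 3.12, 2.91 and 2.72 FPKM in those labelled NC, the same order of libraries as GLRX within the siMTFP1 group. Among the profiles nearest to GSR were SOAT1 (0.03) and PFDN2 (0.04), and those nearest to GCLC were YAE1D1 (0.04), FAM32A (0.05) and PLAG1 (0.05). These distances describe the 6 libraries and carry no test.

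**Figure D4:**
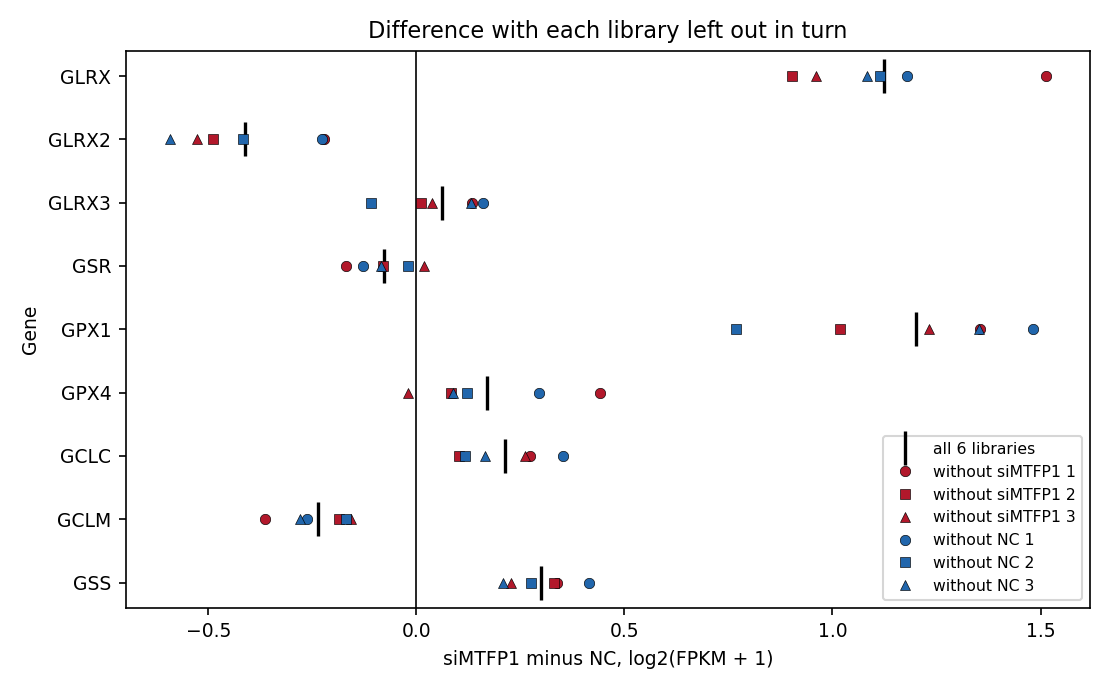
Difference between the libraries labelled siMTFP1 and those labelled NC, in log2(FPKM + 1), with all 6 libraries (black line) and with each library left out in turn (red for a siMTFP1 library left out, blue for an NC library), for the 9 tested genes. GLRX reaches 1.51 without siMTFP1 1, GPX1 is at 0.77 without NC 2, and GLRX3, GPX4 and GSR each cross 0 once.

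Other genes of glutathione metabolism were taken from 9 lists, 131 genes in all, of which 123 were in the files and 81 were tested. Of the 81, 0 passed limma at an adjusted p of 0.05 in either direction, and 2 lay at an unadjusted p under 0.05, GLRX5 in the higher and GGCT in the lower direction. That is 2.47% of the 81, beside 6.53% of all tested genes. A higher mean in the libraries labelled siMTFP1 was found for 46 and a lower one for 35. So 56.8% were higher, beside 54.2% of all tested genes, with a median log2 difference of 0.05 beside 0.02 for all tested genes. The 46 include GSTK1 and TKT, which passed the filter on mean FPKM only through the libraries labelled siMTFP1, and nothing is read from these counts. Means of the genes of the 9 lists are given ± SD with n = 3 libraries each. There was no overlap in 5 genes with higher values in the libraries labelled siMTFP1 (GLRX5, GGT5, CHAC1, MTHFD2 and GCH1) and in 2 with lower values (GGCT and SEPSECS). These are 6.17% and 2.47% of the 81, beside 5.97% and 5.05% of all tested genes.

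In the breakdown and transport of glutathione, 5 of 9 tested genes were higher in mean and 4 lower (median log2 difference 0.05). GGCT, the cyclotransferase that acts on gamma-glutamyl amino acids, had 146.72, 127.14 and 161.57 FPKM in the libraries labelled siMTFP1, against 182.11, 233.39 and 202.22 FPKM in those labelled NC. Every siMTFP1 value was below every NC value, and the log2 difference was -0.50 (SE 0.15, limma adjusted p = 0.644). CHAC1, which degrades glutathione itself, averaged 5.94 ± 0.540 FPKM in the libraries labelled siMTFP1 and 4.65 ± 0.563 FPKM in those labelled NC (SD, n = 3 each), and the gamma-glutamyltransferase family gene GGT5 averaged 3.43 ± 0.670 FPKM in siMTFP1-labelled and 2.53 ± 0.197 FPKM in NC-labelled libraries. Neither overlapped between the groups, and both had log2 differences of about the same size, 0.30 and 0.32 (limma adjusted p = 0.816 and 0.820). SLC25A39, the carrier that brings glutathione into mitochondria, averaged 26.5 ± 4.17 FPKM in siMTFP1-labelled and 25.6 ± 4.00 FPKM in NC-labelled libraries, and its relative SLC25A40 10.3 ± 1.95 FPKM in siMTFP1-labelled and 10.8 ± 2.22 FPKM in NC-labelled libraries.

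The glutathione S-transferases, which attach glutathione to other molecules, had 7 of 11 tested genes higher and 4 lower (median 0.04). GSTM3 was the most abundant, with 972.12, 1587.32 and 1821.08 FPKM in the libraries labelled siMTFP1 and 1287.21, 1317.42 and 1461.38 FPKM in those labelled NC. Its siMTFP1 values lay on both sides of the NC values. MGST3 averaged 146 ± 72.2 FPKM in siMTFP1-labelled and 135 ± 25.9 FPKM in NC-labelled libraries, and GSTA4, which acts on products of lipid peroxidation, 111 ± 7.88 FPKM in siMTFP1-labelled and 123 ± 12.1 FPKM in NC-labelled libraries. GSTK1, of mitochondria and peroxisomes, averaged 1.76 ± 0.885 FPKM in siMTFP1-labelled and 0.953 ± 0.0850 FPKM in NC-labelled libraries. It is counted among the 7 higher, but it passed the filter of 1 FPKM only through the libraries labelled siMTFP1. Nothing is read from its direction or from that count. The groups overlapped in GSTK1 (log2 difference 0.45, limma adjusted p = 0.818). GSTA1, an enzyme also made by steroid-producing ovarian cells, spread widely, with 0.76, 3.98 and 0.55 FPKM in the libraries labelled siMTFP1 and 7.00, 0.38 and 15.15 FPKM in those labelled NC. Copies of these transferases are similar in sequence, and the sources used here do not say how reads were divided among them.

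For the building blocks of glutathione, 6 of 10 tested genes were higher and 4 lower (median 0.04). CTH, which makes cysteine from cystathionine, averaged 133 ± 18.6 FPKM in siMTFP1-labelled and 137 ± 16.6 FPKM in NC-labelled libraries, and CDO1, which oxidizes cysteine, 210.5 ± 36.8 FPKM in siMTFP1-labelled and 215 ± 16.6 FPKM in NC-labelled libraries. SLC3A2, the heavy chain of the cystine transporter and of other amino acid transporters, averaged 118 ± 5.71 FPKM in siMTFP1-labelled and 99.9 ± 15.5 FPKM in NC-labelled libraries (log2 difference 0.25, limma adjusted p = 0.835). The light chain SLC7A11 and cystathionine beta-synthase CBS were below the filter, at no more than 0.48 FPKM in any library.

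NADPH supply, on which GSR depends, had 9 of 12 tested genes higher and 3 lower (median 0.15). Of all tested genes, 54.2% were higher. MTHFD2, an enzyme of mitochondrial folate metabolism, had 166.90, 186.82 and 163.66 FPKM in the libraries labelled siMTFP1, against 153.28, 155.01 and 145.34 FPKM in those labelled NC. The groups did not overlap, and the log2 difference was 0.19 (SE 0.12, limma adjusted p = 0.863). The mitochondrial NAD kinase NADK2 averaged 125 ± 9.68 FPKM in siMTFP1-labelled and 126 ± 18.3 FPKM in NC-labelled libraries, and PGD of the pentose phosphate pathway 98.5 ± 9.78 FPKM in siMTFP1-labelled and 103 ± 17.8 FPKM in NC-labelled libraries. TKT averaged 1.91 ± 1.09 FPKM in siMTFP1-labelled and 0.900 ± 0.485 FPKM in NC-labelled libraries, and NNT, the transhydrogenase of the inner mitochondrial membrane, 4.04 ± 1.51 FPKM in siMTFP1-labelled and 3.05 ± 0.150 FPKM in NC-labelled libraries. TKT is counted among the 9 higher, but it passed the filter of 1 FPKM only through the libraries labelled siMTFP1. Nothing is read from its direction or from that count. The groups overlapped in TKT (log2 difference 0.58, limma adjusted p = 0.801).

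Selenium handling and selenoprotein synthesis, which the selenium-dependent peroxidases need, had 2 of 10 tested genes higher and 8 lower (median -0.08). Of all tested genes, 54.2% were higher. SEPSECS, which completes selenocysteine on its tRNA, had 12.74, 11.71 and 11.14 FPKM in the libraries labelled siMTFP1, against 16.85, 12.95 and 16.84 FPKM in those labelled NC. Its groups did not overlap, and the log2 difference was -0.36 (SE 0.16, limma adjusted p = 0.766). The selenium carrier SELENOP averaged 72.8 ± 15.4 FPKM in siMTFP1-labelled and 77.0 ± 14.5 FPKM in NC-labelled libraries, and SELENBP1 191 ± 11.6 FPKM in siMTFP1-labelled and 192 ± 23.8 FPKM in NC-labelled libraries.

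Genes of NRF2, the transcription factor that drives glutathione synthesis under oxidative stress, and of its control and targets went 7 higher and 6 lower of 13 tested (median 0.05). The ferritin heavy chain FTH1 averaged 339 ± 97.3 FPKM in siMTFP1-labelled and 243 ± 60.2 FPKM in NC-labelled libraries, the light chain FTL 5029 ± 1010 FPKM in siMTFP1-labelled and 5474 ± 562 FPKM in NC-labelled libraries, and KEAP1, which holds NRF2 down, 6.07 ± 1.11 FPKM in siMTFP1-labelled and 5.01 ± 0.408 FPKM in NC-labelled libraries. None of the 3 separated the groups. Among other glutathione-dependent enzymes 4 of 6 were higher and 2 lower (median 0.07), with the glyoxalase GLO1 at 1202 ± 77.1 FPKM in siMTFP1-labelled and 1148 ± 121 FPKM in NC-labelled libraries and ESD at 94.6 ± 25.2 FPKM in siMTFP1-labelled and 96.2 ± 14.8 FPKM in NC-labelled libraries. In lipid peroxidation control 4 of 7 were higher and 3 lower (median 0.10). There GCH1, the first enzyme of tetrahydrobiopterin synthesis, had 69.75, 71.66 and 70.64 FPKM in the libraries labelled siMTFP1, against 65.79, 52.34 and 58.88 FPKM in those labelled NC, without overlap (log2 difference 0.26, SE 0.13, limma adjusted p = 0.801). The other peroxidases outside the 10 genes were GPX8 of the endoplasmic reticulum, at 21.0 ± 2.62 FPKM in siMTFP1-labelled and 22.2 ± 8.60 FPKM in NC-labelled libraries, and GPX7 of the same compartment, at 1.37 ± 0.699 FPKM in siMTFP1-labelled and 1.04 ± 0.350 FPKM in NC-labelled libraries. With GLRX5 they formed a list of 3 tested genes, 2 higher and 1 lower (median 0.19).

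**Figure D5:**
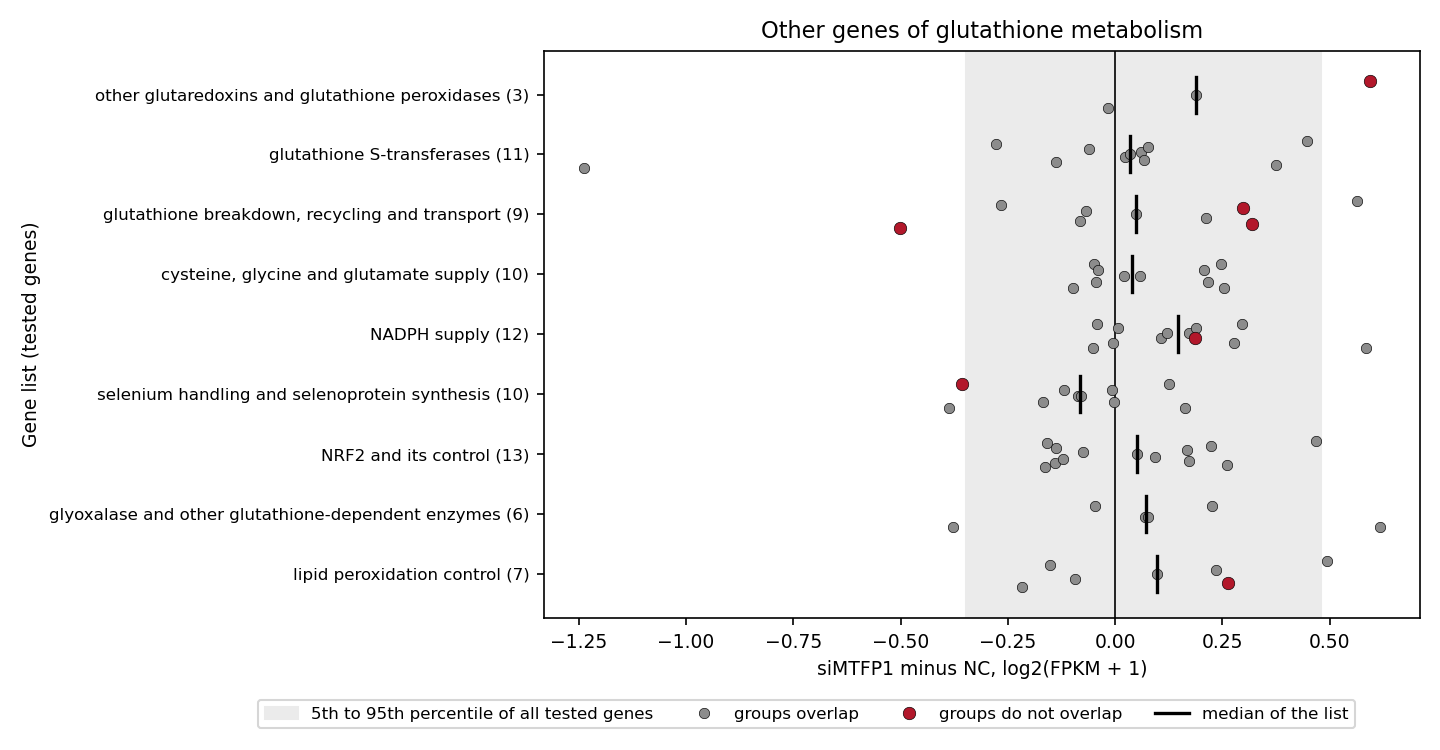
Difference between the libraries labelled siMTFP1 and those labelled NC, in log2(FPKM + 1), for the tested genes of 9 lists of glutathione metabolism (1 point per gene, number tested in brackets, line at each list's median); red points are genes whose groups do not overlap, and grey shading spans the 5th to 95th percentile of all tested genes. The list medians lie between -0.08 and 0.19, and GLRX5 at 0.59 is the red point farthest right.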

How the data were processed

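Per the labels' protocols, RNA was isolated with TRIzol and made into mRNA libraries with a BGI Optimal Dual-mode kit. The authors deposited FPKM per gene with 2 decimals for each of 6 libraries. The build ARS-UCD1.2 and the tools RSEM 1.3.1, HISAT2 2.2.1, DESeq2 1.4.5 and Bowtie2 2.3.4.3 are listed, per the submitters' processing notes, with no role or order. The sources used here do not give strand use. FPKM is relative to the library total, so depth, counting intervals and detection limits cannot be given.

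Files were joined by gene ID, and groups were taken from sample titles. Values were transformed as log2(FPKM + 1), which understates differences of low genes. Genes with a mean of at least 1 FPKM were tested with limma 3.58.1 in R 4.3.3 (trended eBayes, group as the only term, two-sided, Benjamini-Hochberg over 9730 genes, threshold 0.05). The code was tested on simulated data. MTFP1 was compared by an exact permutation test (scipy 1.17.1). Names were checked against RefSeq genes of ARS-UCD2.0, where 17087 of 17325 gene IDs were found, and no coordinates were taken from it. Whether replicates are separate cultures or animals is not in the labels, so the p-values reflect the spread among these 6 samples alone, and that may be technical.

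The members and lists were chosen with earlier results of these data known. Named genes were every member, MTFP1, up to 3 tested genes per list with the highest mean FPKM and up to 2 others with the smallest p, and for the 3 most abundant members the 3 nearest profiles. From these the text gives those it needs, and some are not reported here. SLC7A11, CBS, STAR, HAS2, HBA, VIM, SERPINE2, TNFAIP6, ZP2 and BTG4 were named after their values were seen. Alternatives were pseudocounts of 0.1 and 5, no filter or a filter of 5 FPKM, 3 scalings, robust eBayes, array weights, a block for the replicate number and leaving out each library.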

Additional observations from a re-analysis of the deposited data

How the results depend on the processing

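Of the 9 tested glutathione genes, GLRX, GLRX2, GPX1, GCLC, GCLM and GSS had the same direction in every setting run. GLRX3 turned without NC 2 (range with 1 library left out -0.11 to 0.16), GPX4 without siMTFP1 3 (-0.02 to 0.44) and GSR without siMTFP1 3 (-0.17 to 0.018). The count of these genes called by limma was 0 in all settings but one: without siMTFP1 1 it was 1, GLRX (range over libraries left out 0 to 1). Over all genes limma called 0, and 2 with a filter of 5 FPKM or with FPKM rescaled to equal sums (ISG15 and IFI6 in both), and 0 to 2 with a library left out. Genes at an unadjusted p under 0.05 numbered 635, against 1041 with no filter, 358 with the filter of 5 FPKM, where other numbers of genes were tested, and 1080 with array weights. The range with a library left out was 336 (without siMTFP1 2) to 764. For the 81 other glutathione genes that count was 2, against 9 with array weights and 2 to 7 with a library left out. The cause of the moves with array weights was not tested. The replicate numbers were not taken as pairs because no label says what they stand for. Samples with the same replicate number did not deviate together (correlations across genes 0.03, -0.16 and 0.07). Between samples of unlike number the correlations ran from -0.258 (siMTFP1 3 with NC 1) to 0.231 (siMTFP1 2 with NC 1). The source of these shared deviations was not tested. The replicate block gave 630 genes at an unadjusted p under 0.05 and 0 adjusted calls. Scalings moved the median difference of all genes by less than 0.1. The unknown depth limits what can be said of GPX3, at 0.20 to 2.09 FPKM.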
